A study of Mus musculus with 9 samples.

Results

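The direct comparison of mice with both Dot1l alleles floxed and mice with 1 floxed allele rested on 6 of the 9 libraries in the series: 3 of Dot1l(fl/fl) and 3 of Dot1l(fl/+), chosen by the genotype in their labels. The 3 libraries of Dot1l(+/+) entered the same fit and are given as the background. All 9 libraries came from C57/Bl6 mice that carried Pitx3-Cre/+ and a Rosa-lox-stop-lox-Yfp reporter, so 1 Pitx3 allele carried the Cre in every group, and the groups differed only in the number of floxed Dot1l alleles. The mice were 180 days old, and each library was made from total RNA of ventral midbrain pooled from 3 mice. Each replicate is therefore a pool, and the p-values measure the spread between pools. The series' design text speaks of sorted embryonic cells, while the label of every library gives P180 and a tissue dissection, and the libraries are described here as their labels give them. The tissue was not sorted, and it holds glia, vessels and other neurons in which Pitx3-Cre is not active. In such bulk tissue, fewer cells of a type and less RNA per cell cannot be told apart.

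Dot1l is the methyltransferase that places methyl groups on lysine 79 of histone H3, a mark found over the bodies of transcribed genes, and it works with partners of the transcription elongation machinery. Pitx3 is a transcription factor that in the midbrain is expressed in dopamine neurons, and the Cre driven from its locus acts once these neurons have left the cell cycle. Dopamine neurons make dopamine from tyrosine through Th and Ddc, load it into vesicles with Slc18a2 and take it back up with Slc6a3, and they depend on a steady supply of ATP from mitochondria.

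The floxed part of the gene is exon 5, shown here because its removal is the only genetic difference that the groups were built on. Exon 5 of 28 in the GENCODE transcript Dot1l-201 lies at chr10:80771138-80771366 (GRCm38, plus strand, release M21) and is wholly coding.
Dot1l exon 5: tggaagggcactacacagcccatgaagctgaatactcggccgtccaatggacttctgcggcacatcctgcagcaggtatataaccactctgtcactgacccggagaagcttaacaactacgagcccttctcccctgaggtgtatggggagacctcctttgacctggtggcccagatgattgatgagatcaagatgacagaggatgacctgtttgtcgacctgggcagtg
The exon has 229 bases, 1 more than a multiple of 3, and follows 264 coding bases. Joining exon 4 to exon 6 in this transcript kept the first 88 codons, added 41 codons in another reading frame and then met a stop, which gives 129 codons in place of 1540. The counts are per gene and include the other exons, so they do not measure how much of exon 5 was lost. Dot1l (chr10:80755206-80795461, plus strand) was at 85.2, 80.2 and 85.1 counts per 1000000 counts (CPM) in the 3 Dot1l(+/+) pools, at 84.2, 60.6 and 75.6 in the Dot1l(fl/+) pools and at 82.1, 73.9 and 82.9 in the Dot1l(fl/fl) pools. The Dot1l(fl/fl) pools thus lay inside the range of the Dot1l(fl/+) pools (log2 difference 0.12, 95% interval -0.087 to 0.32, edgeR adjusted p-value 0.850), and without Dot1l(fl/+) replicate 2, the lowest pool, the difference was -0.0059. Of 16 tested genes for Dot1l and its partners, 11 were higher and 5 lower in Dot1l(fl/fl), with a median log2 difference of 0.039, which was -0.0014 with an offset for length and GC and 0.016 without Dot1l(fl/fl) replicate 3. Of these only the cyclin gene Ccnt2, part of the elongation factor P-TEFb, had an unadjusted p-value under 0.05 (6.48% of all genes), at 127, 114 and 114 CPM in the Dot1l(fl/+) pools and 126, 132 and 135 in the Dot1l(fl/fl) pools (edgeR adjusted p-value 0.733).

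The deposited counts summed to between 16422135 (Dot1l(fl/fl) replicate 3) and 28403218 per library. Oligodendrocyte and astrocyte markers were abundant in every pool, with Cnp at 517, 463 and 484 CPM and Aldoc at 848, 858 and 783 CPM in the Dot1l(+/+) pools, so the tissue that the labels call midbrain dopamine neurons also held many other cells. Xist and Y-linked genes separated replicate 1 of each genotype, which read as male (4 Y-linked genes summing to 245 to 256 CPM), from replicates 2 and 3, which read as female (Xist at 627 to 819 CPM and Y-linked genes at up to 0.751 CPM). Both sexes were thus present in the same proportion in each genotype. The Dot1l(fl/+) pools differed more among themselves than the other pools did: the variance between 2 pools was 8.14 to 16.3 times that of counting alone in Dot1l(fl/+), but 4.34 to 6.93 times in Dot1l(fl/fl) and 5.43 to 7.04 times in Dot1l(+/+).

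Across all expressed genes, few differences between Dot1l(fl/fl) and Dot1l(fl/+) passed an adjusted threshold with 3 pools a group. With edgeR's quasi-likelihood test in 1 fit of all 9 libraries, 0 of 17671 genes (0%) passed an adjusted p-value of 0.05, and the lowest adjusted p-value was 0.350. At an unadjusted p-value under 0.05 there were 1145 genes (6.48% of those tested), 637 of them higher (3.6%) and 508 lower (2.87%) in Dot1l(fl/fl). At 0.01 there were 246 (1.39%), of which 142 were higher (0.804%) and 104 lower (0.589%). All 3 Dot1l(fl/fl) pools lay above all 3 Dot1l(fl/+) pools in 1056 genes (5.98%) and below them in 908 (5.14%), together 11.1% of genes. The median log2 difference over all genes was 0.0015. DESeq2 on the same 9 libraries passed 14 of 17879 genes (0.0783%), 5 higher and 9 lower, and DESeq2 on the 6 libraries alone passed 8 of 27376 (0.0292%). The genes of the first set included Slc6a3, Th, Folr1, Trh, Myoc, Mir6236, Slc4a5 and Gm44164 among the lower ones and Pde1a, Wipf3, Sh3bgrl, Cdh9 and Kit as the higher ones. Because no gene passed in edgeR, single genes are described by their levels and by how the pools were placed, and words such as higher and lower refer to those levels.

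**Figure D1:**
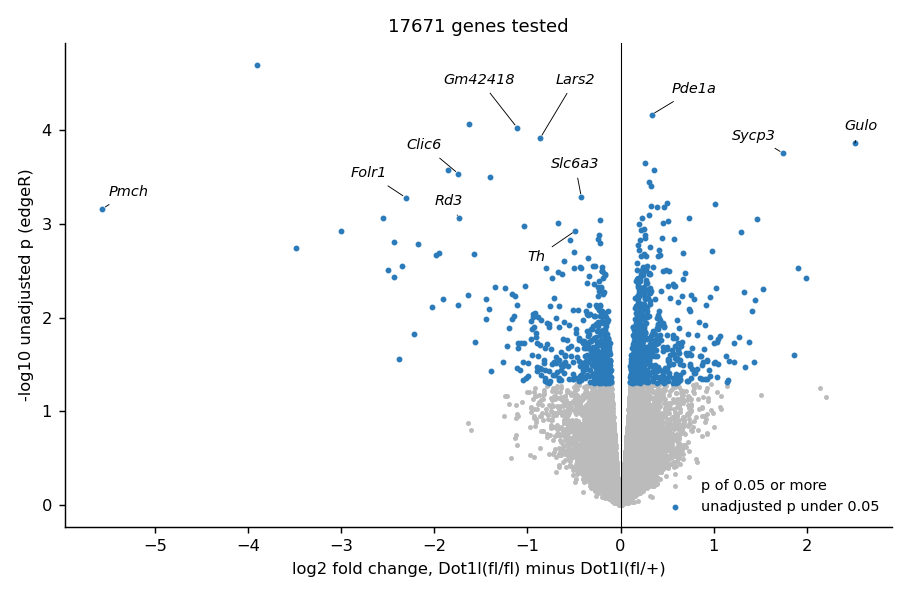
Log2 difference between Dot1l(fl/fl) and Dot1l(fl/+) on the horizontal axis against the negative log10 of edgeR's unadjusted p-value on the vertical axis, 1 point for each of 17671 genes, with 11 genes labelled. The 1145 blue points have an unadjusted p-value under 0.05; none passed the adjusted threshold, and the points farthest from 0 on the left have low or variable counts, such as Pmch.

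The genes that make, store and recover dopamine were lower with 2 floxed alleles than with 1. Of 25 tested genes of dopamine neurons, 20 were lower and 5 higher in Dot1l(fl/fl), with a median log2 difference of -0.18. An unadjusted p-value under 0.05 was found for 11 of them, all lower (2.87% of all genes), and in 5 of them every Dot1l(fl/fl) pool lay below every Dot1l(fl/+) pool (5.14% of all genes). The 11 became 5 without Dot1l(fl/+) replicate 1 and 6 with DESeq2 on the 6 libraries, again all lower. The mean log2 CPM of the 25 genes was 4.10, 3.99 and 3.85 in the Dot1l(fl/+) pools and 3.79, 3.74 and 3.77 in the Dot1l(fl/fl) pools, beside 4.13, 4.12 and 4.09 in Dot1l(+/+).

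Slc6a3, the dopamine transporter (chr13:73536747-73578672, plus strand), was at 166, 150.5 and 144 CPM in the Dot1l(+/+) pools, at 141, 138 and 106 in the Dot1l(fl/+) pools and at 94.3, 92.9 and 101 in the Dot1l(fl/fl) pools. All Dot1l(fl/fl) pools lay below all Dot1l(fl/+) pools, of which replicate 3 was the lowest (log2 difference -0.42, SE 0.0927, edgeR adjusted p-value 0.535). Th, tyrosine hydroxylase (chr7:142892752-142931128, minus strand), was at 84.3, 77.4 and 64.0 CPM in the Dot1l(+/+) pools, at 66.8, 74.4 and 52.3 in the Dot1l(fl/+) pools and at 48.7, 44.5 and 45.0 in the Dot1l(fl/fl) pools. The Dot1l(fl/fl) pools were again all below, and they lay within a narrow range (log2 difference -0.48, SE 0.118, edgeR adjusted p-value 0.549). DESeq2 on 9 libraries gave adjusted p-values of 0.0257 for Slc6a3 and 0.0457 for Th, and on 6 libraries 0.0502 and 0.0435. Slc18a2, the vesicular monoamine transporter (chr19:59260896-59296012, plus strand), was at 74.0, 78.6 and 53.5 CPM in the Dot1l(fl/+) pools and at 54.2, 52.5 and 53.3 in the Dot1l(fl/fl) pools, so that Dot1l(fl/+) replicate 3 fell among the Dot1l(fl/fl) pools (log2 difference -0.37, SE 0.107, edgeR adjusted p-value 0.615). When Dot1l(fl/+) replicate 3 was left out, both Slc6a3 and Slc18a2 passed in edgeR (adjusted p-value 0.0129 for each), with log2 differences of -0.54 and -0.52. That pool had the lowest level of Th, Slc6a3, Slc18a2 and Ddc in its genotype. Leaving out Dot1l(fl/+) replicate 1 gave -0.35 for Slc6a3, and leaving out Dot1l(fl/+) replicate 2 gave -0.26 for Slc18a2. Neither gene passed in any other fit that left out 1 library. Ddc, aromatic amino acid decarboxylase, was at 70.4, 71.3 and 58.8 CPM in the Dot1l(fl/+) pools and 55.6, 57.7 and 64.0 in the Dot1l(fl/fl) pools, and Gch1, which starts the synthesis of the cofactor of Th, was at 6.66, 6.61 and 5.15 and 4.92, 5.18 and 4.06. Both groups overlapped in these genes, at log2 differences of -0.18 and -0.37 (edgeR adjusted p-values 0.758 and 0.726).

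**Figure D2:**
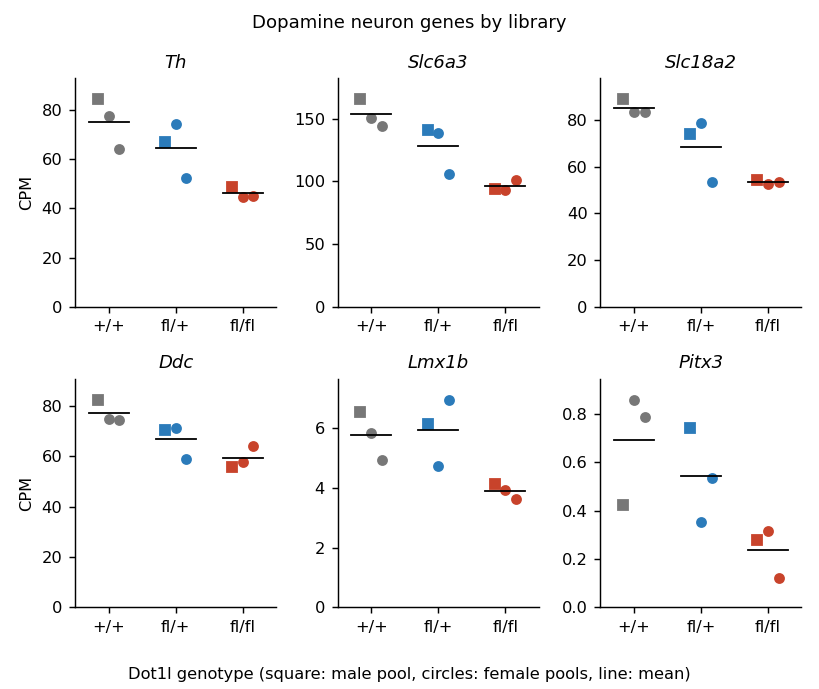
CPM of 6 dopamine neuron genes in each of the 9 libraries by genotype, with squares for the male pool, circles for the female pools and a line for the mean of 3 pools. The Dot1l(fl/fl) pools of Th, Slc6a3, Lmx1b and Pitx3 lie below every Dot1l(fl/+) pool, while in Slc18a2 and Ddc the groups overlap through Dot1l(fl/+) replicate 3.

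The start regions of 3 of these genes are shown because the genes were lower together, each as the 300 bases from 250 before to 50 after the start of transcription (RefSeq, GRCm38.p6).
Th promoter (chr7:142899946-142900245, minus strand): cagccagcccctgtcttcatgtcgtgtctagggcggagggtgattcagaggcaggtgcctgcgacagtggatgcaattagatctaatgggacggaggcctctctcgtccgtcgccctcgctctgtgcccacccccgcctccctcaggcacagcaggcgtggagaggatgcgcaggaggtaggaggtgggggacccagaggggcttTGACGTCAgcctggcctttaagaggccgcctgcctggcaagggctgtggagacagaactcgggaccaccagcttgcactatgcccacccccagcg
Slc18a2 promoter (chr19:59260628-59260927, plus strand): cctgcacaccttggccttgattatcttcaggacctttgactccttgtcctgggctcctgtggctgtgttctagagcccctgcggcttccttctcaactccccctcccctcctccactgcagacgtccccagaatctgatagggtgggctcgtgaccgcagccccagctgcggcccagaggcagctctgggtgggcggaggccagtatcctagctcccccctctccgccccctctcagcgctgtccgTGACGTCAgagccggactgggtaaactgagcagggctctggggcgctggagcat
Slc6a3 promoter (chr13:73536497-73536796, plus strand): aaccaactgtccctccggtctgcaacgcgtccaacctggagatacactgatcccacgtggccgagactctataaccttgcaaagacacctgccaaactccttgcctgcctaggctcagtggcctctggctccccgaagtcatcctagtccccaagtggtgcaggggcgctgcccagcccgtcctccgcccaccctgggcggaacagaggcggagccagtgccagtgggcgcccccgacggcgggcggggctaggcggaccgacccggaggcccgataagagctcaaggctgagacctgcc
The capitals mark the letters TGACGTCA, the cAMP response element, which reads the same on both strands. They begin 45 bases before the start in Th and 4 bases before it in Slc18a2, are not in the Slc6a3 window, and occur in 1.88% of 27025 promoter windows. The letters AGGTCA, a nuclear receptor half-site, and TAATCC, a bicoid-type homeodomain site, searched on both strands, were in none of the 3 windows and in 16% and 7.16% of all windows. Of the promoters of Ddc and Lmx1b, also searched and not printed, that of Ddc held AGGTCA on the opposite strand, 73 bases before the start, and neither held the other letters. Such matches describe the letters only.

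Among the transcription factors of dopamine neurons, 9 of 10 were lower in Dot1l(fl/fl), with a median log2 difference of -0.36, and 5 of the 10 were lower with an unadjusted p-value under 0.05 (2.87% of all genes). Lmx1b, a homeodomain factor of these and of serotonin neurons, was at 6.15, 4.73 and 6.94 CPM in the Dot1l(fl/+) pools and at 4.12, 3.91 and 3.64 in the Dot1l(fl/fl) pools, with no overlap (log2 difference -0.60, SE 0.162, edgeR adjusted p-value 0.602). Its relative Lmx1a was at 3.45, 1.80 and 3.82 and 2.24, 1.5 and 2.06 CPM, and there the groups overlapped through Dot1l(fl/+) replicate 2. Pitx3 itself, of which 1 allele carries the Cre in all groups, was at 0.744, 0.353 and 0.534 CPM in the Dot1l(fl/+) pools and 0.280, 0.316 and 0.121 in the Dot1l(fl/fl) pools, few counts in every library (log2 difference -1.08, SE 0.467, edgeR adjusted p-value 0.745). Nr4a2, a factor required for these neurons, was at 34.4, 36.8 and 27.2 and 32.2, 31.8 and 33.7 CPM, a log2 difference of -0.012 with a 95% interval of -0.23 to 0.20. The dopamine receptor gene Drd2 (log2 difference -0.16), the GDNF receptor Ret (-0.077), the nicotinic subunits Chrna6 (-0.012) and Chrnb3 (0.078) and the aldehyde dehydrogenase Aldh1a1 (-0.082) overlapped between the groups. Within the sexes, the median of the 25 genes was -0.10 in the female pools, with 16 genes lower, and -0.29 in the male pools, 1 against 1, with 23 lower.

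Nuclear genes of the respiratory chain were lower with 2 floxed alleles than with 1 by small amounts, and the protein genes of the mitochondrial genome were higher. Of 78 nuclear genes for subunits of complexes I to V, 74 were lower and 4 higher in Dot1l(fl/fl), with a median log2 difference of -0.11. An unadjusted p-value under 0.05 was reached by 7 of them, all lower (2.87% of all genes), and 5 had no overlap, all lower (5.14% of all genes). Leaving out Dot1l(fl/+) replicate 1 or Dot1l(fl/fl) replicate 2 raised the 7 to 30 or 25, while the count was 1 without Dot1l(fl/+) replicate 2, 4 without replicate 3 of that genotype, and 3 without either Dot1l(fl/fl) replicate 1 or 3. Over all genes the count of lower ones moved too, from 508 to 773 of 17884 without Dot1l(fl/+) replicate 1, to 762 of 17891 without replicate 2 and to 341 of 17883 without replicate 3. It was 448 of 17920, 552 of 17903 and 432 of 17898 when Dot1l(fl/fl) replicate 1, 2 or 3 was left out. Leaving out Dot1l(fl/+) replicate 2 or Dot1l(fl/fl) replicate 3 brought the median to -0.064 or -0.066. By complex, 35 of 37 genes were lower in complex I, 4 of 4 in complex II, 8 of 9 in complex III, 11 of 11 in complex IV and 16 of 17 in the ATP synthase, with medians of -0.099, -0.083, -0.14, -0.12 and -0.084. Cox7b, a subunit of cytochrome c oxidase (chrX:106015700-106022450, plus strand), was at 66.2, 64.8 and 65.1 CPM in the Dot1l(+/+) pools, at 76.2, 90.3 and 81.0 in the Dot1l(fl/+) pools and at 73.5, 74.7 and 65.9 in the Dot1l(fl/fl) pools, all below the Dot1l(fl/+) pools (log2 difference -0.21, SE 0.0676, edgeR adjusted p-value 0.708). Cyc1, cytochrome c1 of complex III, was at 131, 148 and 140.1 CPM in the Dot1l(fl/+) pools and at 126, 126 and 125 in the Dot1l(fl/fl) pools, also without overlap (log2 difference -0.15, SE 0.0584, edgeR adjusted p-value 0.726). Atp5g3, part of the proton ring of the ATP synthase, was at 153, 176 and 166 and 127, 163 and 141 CPM, where Dot1l(fl/fl) replicate 2 overlapped the Dot1l(fl/+) pools, and Ndufa13 of complex I was at 55.3, 67.7 and 68.4 and 54.7, 56.5 and 56.9, where Dot1l(fl/+) replicate 1 did.

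The level of the whole list did not separate the groups. Its mean log2 CPM was 5.62, 5.83 and 5.78 in the Dot1l(fl/+) pools and 5.60, 5.75 and 5.55 in the Dot1l(fl/fl) pools, so Dot1l(fl/fl) replicate 2 lay above Dot1l(fl/+) replicate 1, and the Dot1l(+/+) pools were at 5.55, 5.59 and 5.48. In the female pools 73 of 78 genes were lower, with a median of -0.16, whereas in the male pools, 1 against 1, 39 of 78 were lower, with a median of 0.0013. With gene length and GC content taken up by an offset, the median was -0.070 and 69 of 78 genes were lower. Over all genes the median log2 difference moved with length, from -0.048 in the fifth of genes with the shortest transcripts to 0.024 in the fifth with the longest. The part of length in the difference of the short respiratory chain transcripts was tested only by that offset.

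Of the 13 proteins encoded by the mitochondrial genome, 7 passed the filter on low counts, and the other 6 had at most 15 counts in any library. All 7 were higher in Dot1l(fl/fl), with a median log2 difference of 0.19, and 4 had an unadjusted p-value under 0.05 (3.6% of all genes). The gene mt-Nd5 (chrM:11742-13565, plus strand), a complex I subunit, was at 3948, 4736 and 4680.5 CPM in the Dot1l(+/+) pools, at 4120.4, 4299.7 and 3714 in the Dot1l(fl/+) pools and at 5237, 4587 and 4562 in the Dot1l(fl/fl) pools, all above the Dot1l(fl/+) pools (log2 difference 0.25, SE 0.0823, edgeR adjusted p-value 0.712). The other 3 overlapped: mt-Cytb at 0.19, mt-Nd2 at 0.19 and mt-Nd4 at 0.21 on the log2 scale. Dot1l(fl/+) replicate 3 was the lowest of the Dot1l(fl/+) pools in mt-Nd5, mt-Cytb, mt-Nd2, mt-Nd4, mt-Nd1 and mt-Co1, and without it 0 of the 7 had an unadjusted p-value under 0.05 and the median was 0.11. Without Dot1l(fl/fl) replicate 1 none did either, at a median of 0.15. The only protein gene on the other strand, mt-Nd6, was at 41.4, 54.1 and 42.5 and 39.8, 59.2 and 42.6 CPM (log2 difference 0.039), and its sign turned to -0.030 with the length and GC offset.

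Other families whose genes are transcribed in all cells were lower by less in Dot1l(fl/fl) against Dot1l(fl/+). Their medians rested in part on single pools. The mean log2 CPM of cytosolic ribosomal proteins was 3.133, 3.199 and 3.199 in Dot1l(+/+) and 3.254, 3.391 and 3.211 in Dot1l(fl/fl). It was 3.246, 3.435 and 3.353 in Dot1l(fl/+). For mitochondrial ribosomal proteins it was 4.183, 4.183 and 4.161 in Dot1l(+/+) and 4.204, 4.264 and 4.188 in Dot1l(fl/fl). In these lists every Dot1l(fl/fl) pool lay above every Dot1l(+/+) pool. The proteasome and endoplasmic reticulum lists overlapped. Of 77 mitochondrial ribosomal proteins 60 were lower (median -0.060), of 77 cytosolic ribosomal proteins 51 were lower (median -0.048), of 31 proteasome subunits 27 were lower (median -0.058), and of 25 genes for chaperones and glycosylation in the endoplasmic reticulum 24 were lower (median -0.092). An unadjusted p-value under 0.05 was reached by 1 lower mitochondrial ribosomal gene and 6 lower cytosolic ribosomal genes (2.87% of all genes), by 1 higher proteasome subunit (3.6% of all genes) and by 0 genes of the endoplasmic reticulum. Without Dot1l(fl/+) replicate 2 the cytosolic ribosomal proteins turned, with 42 of 77 higher and a median of 0.025, and with the length and GC offset 42 of 77 were lower, with a median of -0.0076. Leaving out the same pool left 42 of 77 mitochondrial ribosomal proteins lower (median -0.017) and 18 of 31 proteasome subunits (median -0.015). Without Dot1l(fl/+) replicate 1 the medians were -0.10 for the cytosolic ribosome, -0.096 for the mitochondrial ribosome and -0.10 for the proteasome, and without Dot1l(fl/fl) replicate 2 that of the cytosolic ribosomal proteins was -0.12. For the endoplasmic reticulum genes, leaving out Dot1l(fl/+) replicate 3 gave -0.048, and leaving out Dot1l(fl/fl) replicate 1 or 3 gave -0.057 or -0.058. Rps21 of the small cytosolic subunit was at 6.43, 4.81 and 4.32 CPM in the Dot1l(+/+) pools, at 8.54, 9.47 and 8.89 in the Dot1l(fl/+) pools and at 7.04, 6.84 and 6.43 in the Dot1l(fl/fl) pools, without overlap (log2 difference -0.40, SE 0.135, edgeR adjusted p-value 0.712). The mitochondrial ribosomal gene Mrps34 was at 33.3, 33.1 and 32.9 CPM and 30.1, 28.9 and 28.4 CPM, also without overlap (log2 difference -0.18, SE 0.0704, edgeR adjusted p-value 0.726). The proteasome gene was Psma4, which was higher, at 27.3, 32.4 and 30.2 CPM in the Dot1l(fl/+) pools and 33.5, 33.2 and 33.7 in the Dot1l(fl/fl) pools. As with the respiratory chain, the medians were nearer 0 in the male pools, at 0.031, -0.014, -0.0015 and -0.048 for the 4 families in the order given, than in the female pools, at -0.10, -0.10, -0.090 and -0.13.

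**Figure D3:**
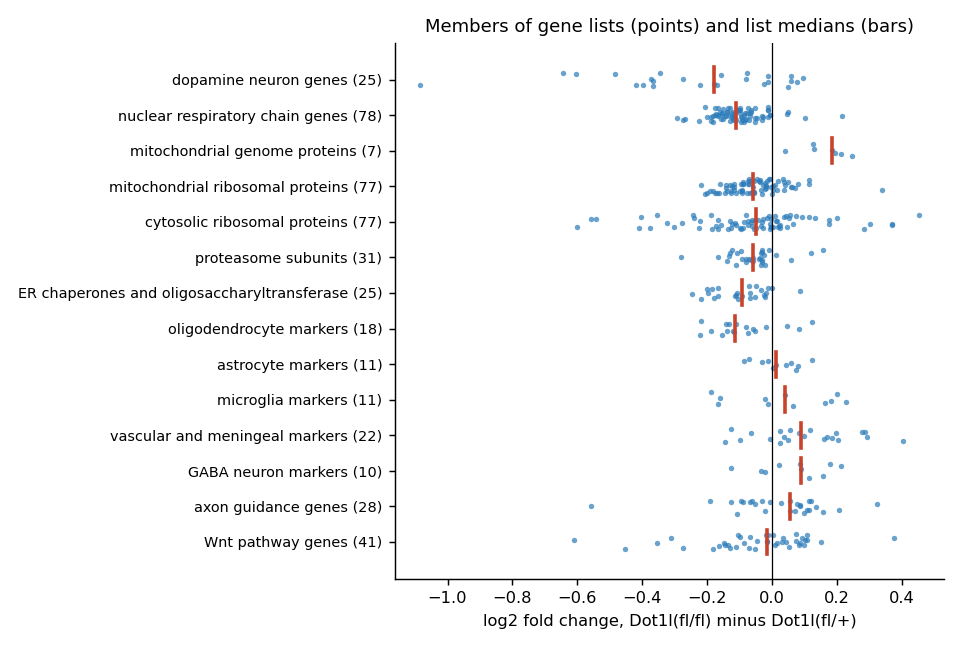
Log2 difference between Dot1l(fl/fl) and Dot1l(fl/+) on the horizontal axis for the members of 14 gene lists, 1 point per gene, with the number tested in brackets and a bar at the median of the list. The medians of dopamine neuron genes (-0.18) and of nuclear respiratory chain genes (-0.11) lie left of 0 and that of mitochondrial genome proteins (0.19) right of 0, with single genes spread on both sides in most lists.

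Among the 10 protein-coding genes with the lowest p-values of those higher in Dot1l(fl/fl), all but Gulo and Sycp3 were expressed at moderate levels and differed by small folds. Pde1a, a calmodulin-dependent phosphodiesterase of cyclic nucleotides (chr2:79834453-80129458, minus strand), was at 136, 125 and 139 CPM in the Dot1l(+/+) pools, at 115, 122 and 112 in the Dot1l(fl/+) pools and at 156, 142 and 142 in the Dot1l(fl/fl) pools (log2 difference 0.33, SE 0.0588, edgeR adjusted p-value 0.403). Every Dot1l(fl/fl) pool lay above every Dot1l(fl/+) pool, and the DESeq2 adjusted p-value of Pde1a was 0.00436 on 9 libraries and 0.0365 on 6. Sh3bgrl, a small thioredoxin-fold protein, was at 114, 112 and 108 CPM in the Dot1l(fl/+) pools and 137, 131 and 131 in the Dot1l(fl/fl) pools (log2 difference 0.26, SE 0.0524, edgeR adjusted p-value 0.458). In both genes the Dot1l(+/+) pools lay above the Dot1l(fl/+) pools, at 129, 123 and 138 CPM for Sh3bgrl.

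The receptor tyrosine kinase Kit was at 53.6, 49.0 and 56.1 CPM in the Dot1l(+/+) pools, at 45.7, 53.6 and 52.3 in the Dot1l(fl/+) pools and at 64.8, 63.0 and 62.9 in the Dot1l(fl/fl) pools, above both other groups (log2 difference 0.33, SE 0.0704, edgeR adjusted p-value 0.492). Wipf3, which binds the actin regulator N-WASP, was at 135, 128 and 152 CPM in the Dot1l(+/+) pools, at 124, 125 and 110.2 in the Dot1l(fl/+) pools and at 186, 177 and 132 in the Dot1l(fl/fl) pools, where replicate 3 lay among the Dot1l(+/+) pools (log2 difference 0.46, SE 0.105, edgeR adjusted p-value 0.535). The cell adhesion genes Cdh9, a cadherin, and Itga8, an integrin subunit, were at 36.0, 37.2 and 32.5 and 12.7, 13.2 and 9.77 CPM in the Dot1l(fl/+) pools and at 41.1, 48.2 and 46.8 and 16.5, 17.4 and 16.7 in the Dot1l(fl/fl) pools, without overlap (log2 differences 0.36 and 0.50, edgeR adjusted p-values 0.458 and 0.535). The LIM homeodomain factor Lhx9 was at 31.2, 28.6 and 29.1 CPM in the Dot1l(fl/+) pools and 36.1, 37.8 and 35.5 in the Dot1l(fl/fl) pools, with the Dot1l(+/+) pools between them at 34.3, 34.8 and 33.7 (log2 difference 0.30, SE 0.0633, edgeR adjusted p-value 0.484). The length and GC offset gave log2 differences of 0.26 for Pde1a, 0.16 for Sh3bgrl, 0.30 for Kit, 0.47 for Wipf3 and 0.29 for Cdh9.

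Epha7 was the only axon guidance gene among the 10 higher ones with the lowest p-values. Of 15 axon guidance receptors 10 were higher in Dot1l(fl/fl) and 4 had no overlap (5.98% of all genes), all higher: Epha7, Epha4, Nrp1 and Nrp2. Over the 28 receptors and ligands the median log2 difference was 0.054, and it was 0.014 with the length and GC offset. Epha7, a receptor of ephrins, was at 91.0, 90.7 and 78.5 CPM in the Dot1l(fl/+) pools and 106, 119 and 101 in the Dot1l(fl/fl) pools (log2 difference 0.32, SE 0.0728, edgeR adjusted p-value 0.535), and Epha4 was at 242, 226 and 247 and 283, 288 and 254 CPM (log2 difference 0.21, SE 0.0679, edgeR adjusted p-value 0.708). Nrp1, a receptor of class 3 semaphorins, was at 96.2, 106 and 105 and 111, 116 and 111 CPM (log2 difference 0.13, SE 0.0513, edgeR adjusted p-value 0.726). Of 13 guidance ligands 7 were lower and 2 had no overlap, both lower (5.14% of all genes). Sema3a was at 4.03, 5.26 and 4.96 CPM in the Dot1l(fl/+) pools and 3.08, 3.24 and 3.40 in the Dot1l(fl/fl) pools (log2 difference -0.56, SE 0.192, edgeR adjusted p-value 0.726), and netrin 1, Ntn1, was at 29.2, 28.9 and 27.3 and 24.2, 24.0 and 26.9 CPM with 32.7, 31.6 and 30.5 in the Dot1l(+/+) pools (log2 difference -0.19, SE 0.0712, edgeR adjusted p-value 0.726).

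**Figure D4:**
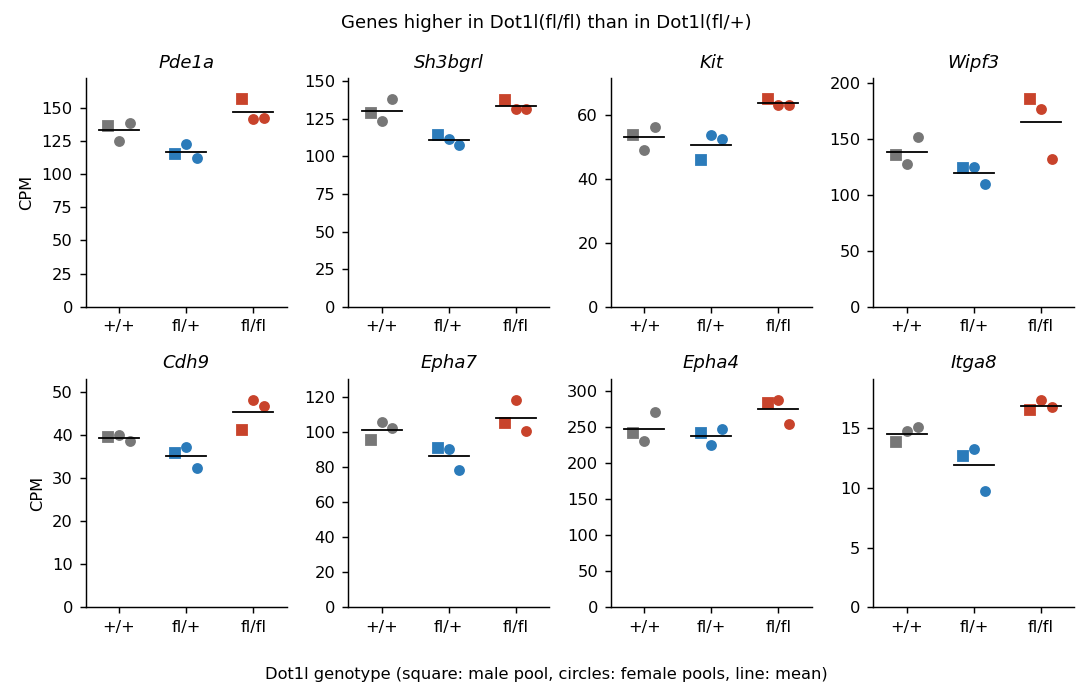
CPM of 8 genes that were higher in Dot1l(fl/fl) than in Dot1l(fl/+), in each of the 9 libraries by genotype, with squares for the male pool, circles for the female pools and a line for the mean of 3 pools. In all 8 genes every Dot1l(fl/fl) pool lies above every Dot1l(fl/+) pool, and all axes start at 0.

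The largest log2 differences among the higher genes were in genes with few counts. Gulo, the last enzyme of vitamin C synthesis, was at 0.196, 0.177 and 0.0382 CPM in the Dot1l(fl/+) pools and at 1.12, 0.712 and 0.546 in the Dot1l(fl/fl) pools, beside 0.709, 0.558 and 0.601 in the Dot1l(+/+) pools, so the Dot1l(fl/+) pools were the ones apart (log2 difference 2.52, SE 0.477, edgeR adjusted p-value 0.403). Sycp3, a protein of the meiotic chromosome axis, was at 0.473, 0.773 and 0.451 CPM in the Dot1l(+/+) pools, at 0.548, 0.318 and 0.382 in the Dot1l(fl/+) pools and at 1.48, 1.03 and 1.76 in the Dot1l(fl/fl) pools, where the Dot1l(fl/fl) pools were the ones apart (log2 difference 1.75, SE 0.340, edgeR adjusted p-value 0.442). The processed pseudogene Gm11914 and the long noncoding RNA gene Gm44724 were higher at log2 differences of 1.01 and 1.47, at no more than 2.36 and 1.03 CPM.

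Genes of the choroid plexus, the epithelium that secretes cerebrospinal fluid, were among those with large log2 differences on the lower side. Of 14 markers of choroid plexus and ependyma 13 were lower in Dot1l(fl/fl), with a median log2 difference of -0.95. All 9 choroid plexus markers were lower with an unadjusted p-value under 0.05 (2.87% of all genes; median -2.18), and 7 of them had no overlap (5.14% of all genes), while none of the 5 ependymal markers reached that p-value. Clic6, an intracellular chloride channel protein (chr16:92485736-92541243, plus strand), was at 8.61, 4.64 and 8.38 CPM in the Dot1l(+/+) pools, at 9.52, 9.47 and 22.5 in the Dot1l(fl/+) pools and at 3.24, 3.28 and 6.25 in the Dot1l(fl/fl) pools (log2 difference -1.74, SE 0.359, edgeR adjusted p-value 0.458). Folr1, the folate receptor of this epithelium, was at 1.37, 0.644 and 1.01, then 1.21, 1.41 and 4.27 and 0.600, 0.435 and 0.303 CPM in the same order (log2 difference -2.31, SE 0.508, edgeR adjusted p-value 0.535). F5, coagulation factor V, was at 3.92, 3.57 and 15.3 CPM in the Dot1l(fl/+) pools and 2.24, 1.03 and 1.76 in the Dot1l(fl/fl) pools (log2 difference -2.18, SE 0.553, edgeR adjusted p-value 0.573). Dot1l(fl/+) replicate 3 was the highest of the 9 libraries in each of these genes. Without it the median of the 14 markers was -0.33, and 6 had an unadjusted p-value under 0.05. Among the 9 of the 14 that held 10 counts in every library the median was -0.35 and 5 were lower with an unadjusted p-value under 0.05. Within the sexes the median of the 14 was -1.30 in the female pools and -0.36 in the male pools. In Clic6, Folr1 and F5 every Dot1l(fl/fl) pool lay below every Dot1l(fl/+) pool, so leaving out a pool could not make the groups overlap. Tmem72, a membrane protein gene, had a like pattern over the pools, at 2.27, 4.66 and 8.55 CPM in the Dot1l(fl/+) pools and 1.12, 0.474 and 1.09 in the Dot1l(fl/fl) pools (log2 difference -2.55, SE 0.598, edgeR adjusted p-value 0.535). It passed in DESeq2 on 6 libraries (adjusted p-value 2.23e-05) but not in DESeq2 on 9 libraries.

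Some hypothalamic neuropeptide genes were high in 2 of the 3 Dot1l(fl/+) pools. Of 7 neuropeptides tested, 5 were lower in Dot1l(fl/fl), 3 of them with an unadjusted p-value under 0.05 (2.87% of all genes), and 2, Cartpt and Crh, were higher at log2 differences of 0.13 and 0.032. The most negative log2 difference of all genes tested was that of Pmch. Pmch, the precursor of melanin-concentrating hormone, was at 99.4, 0.636 and 49.6 CPM in the Dot1l(fl/+) pools, at 1.000, 0.712 and 1.58 in the Dot1l(fl/fl) pools and at 7.24, 0.472 and 0.751 in the Dot1l(+/+) pools. Replicate 2 of Dot1l(fl/+) lay below the Dot1l(fl/fl) pools, so the groups overlapped (log2 difference -5.57, SE 1.27, edgeR adjusted p-value 0.535). Trh, thyrotropin-releasing hormone, was at 4.62, 0.601 and 3.21 CPM in the Dot1l(fl/+) pools and 0.480, 0.435 and 0.667 in the Dot1l(fl/fl) pools, with the same pools high (log2 difference -2.43, SE 0.614, edgeR adjusted p-value 0.573). Hcrt, the precursor of orexin, did not pass the filter and had 413, 2 and 69 counts in the Dot1l(fl/+) pools, against 3, 2 and 2 in the Dot1l(fl/fl) pools and 2, 0 and 5 in the Dot1l(+/+) pools. Avp, vasopressin, which also did not pass, had another pattern, with 38, 4 and 6 counts in the Dot1l(fl/+) pools, 2, 5 and 4 in the Dot1l(fl/fl) pools and 1, 2 and 56 in the Dot1l(+/+) pools. Pomc, a precursor of several pituitary hormones, was at 2.12, 1.31 and 2.14 and 0.760, 0.870 and 1.27 CPM, without overlap (log2 difference -0.97, SE 0.327, edgeR adjusted p-value 0.719). Of 21 listed hypothalamic markers 12 were tested, of which 7 were lower and 4 had an unadjusted p-value under 0.05 and were lower (2.87% of all genes), the fourth being the transcription factor Nkx2-1, while Lhx9, which is on this list too, was higher. The mean log2 CPM of choroid plexus markers was 1.40, 1.82 and 3.25 in the Dot1l(fl/+) pools. It was 0.84, 0.43 and 0.69 in the Dot1l(fl/fl) pools and 1.82, 1.02 and 1.73 in the Dot1l(+/+) pools. That level was thus highest in Dot1l(fl/+) replicate 3, and all Dot1l(fl/fl) pools lay below all other pools. Pmch, Trh and Hcrt were high in Dot1l(fl/+) replicates 1 and 3. The part of choroid plexus and hypothalamus in other differences was not tested.

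Genes suspected to share sequence with ribosomal RNA, listed together with the short structured RNA Rn7sk as rRNA-like genes, were lower in Dot1l(fl/fl) than in Dot1l(fl/+), and most of them were at similar levels in Dot1l(+/+) and Dot1l(fl/fl). Of 6 tested, 5 were lower in Dot1l(fl/fl), all 5 with an unadjusted p-value under 0.05 (2.87% of all genes), and the median log2 difference was -1.12. Gm42418, a predicted noncoding RNA gene (chr17:39846958-39848788, plus strand), was at 391, 322 and 354 CPM in the Dot1l(+/+) pools, at 1032, 925 and 638 in the Dot1l(fl/+) pools and at 264, 423 and 516 in the Dot1l(fl/fl) pools (log2 difference -1.11, SE 0.202, edgeR adjusted p-value 0.403). Lars2, the mitochondrial leucyl-tRNA synthetase (chr9:123366927-123462666, plus strand), was at 56.2, 52.5 and 51.7, then 118, 95.5 and 73.5 and 39.1, 57.3 and 61.7 CPM in the same order (log2 difference -0.86, SE 0.162, edgeR adjusted p-value 0.403). Rn7sk, the RNA that holds P-TEFb inactive, was at 1.57, 1.38 and 1.18 CPM in the Dot1l(fl/+) pools and 0.160, 0.514 and 0.485 in the Dot1l(fl/fl) pools (log2 difference -1.85, SE 0.378, edgeR adjusted p-value 0.458). In Gm42418, Lars2 and Rn7sk, Dot1l(fl/+) replicate 1 was the highest and Dot1l(fl/fl) replicate 1 the lowest of all 9 libraries. Within the sexes the median was -0.61 in the female pools and -2.07 in the male pools.

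Mir6236 is a locus of the same list, and its mature sequence is shown to identify it, with the seed (bases 2 to 8) in capitals (RefSeq, GRCm38.p6, chr9:110281353-110281371, plus strand).
mmu-miR-6236: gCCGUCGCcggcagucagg
The libraries were not made for small RNAs, so the counts at this locus are those of longer fragments and do not measure the mature microRNA. Mir6236 was at 2.70, 2.15 and 1.95 CPM in the Dot1l(+/+) pools, at 6.78, 5.86 and 4.08 in the Dot1l(fl/+) pools and at 1.44, 1.58 and 3.58 in the Dot1l(fl/fl) pools, without overlap between the last groups (log2 difference -1.40, SE 0.291, edgeR adjusted p-value 0.458). The unclassified transcript Gm44164, which is not on the list, was at 1.56, 1.42 and 1.92, 1.96, 2.72 and 2.21 and 0.960, 0.395 and 0.910 CPM in the same order, so that here the Dot1l(fl/fl) pools were the ones below both other groups (log2 difference -1.63, SE 0.294, edgeR adjusted p-value 0.403).

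**Figure D5:**
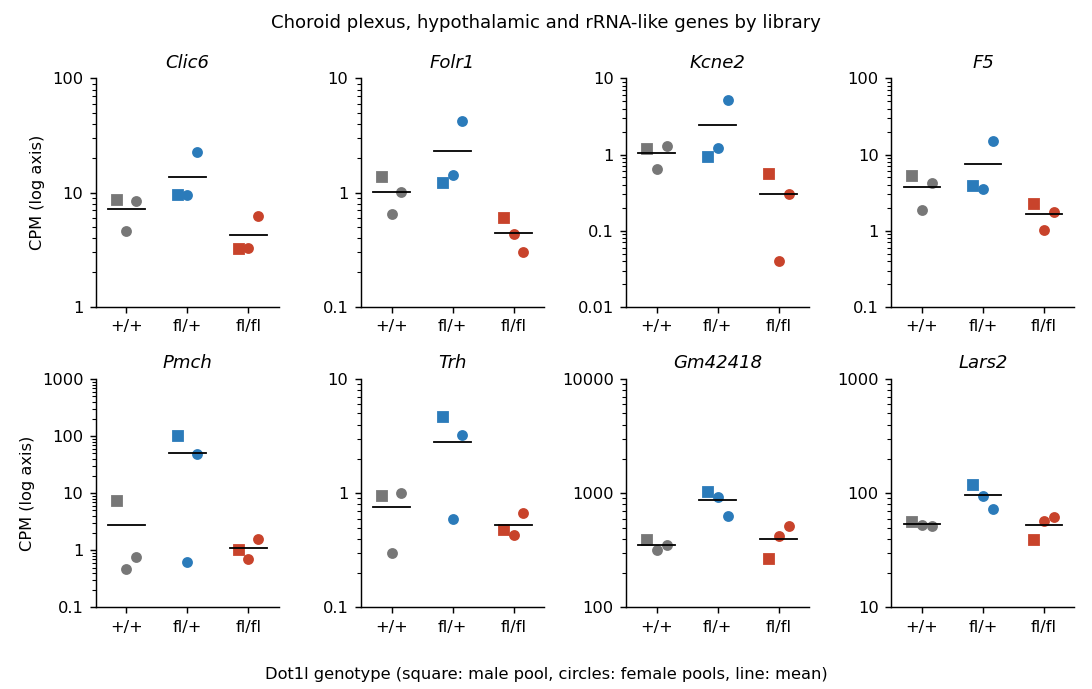
CPM on a log axis of 4 choroid plexus genes, 2 hypothalamic neuropeptide genes, Gm42418 and Lars2 in each of the 9 libraries by genotype, with squares for the male pool, circles for the female pools and a line for the mean of 3 pools. Dot1l(fl/+) replicate 3 is highest in the choroid plexus genes, replicates 1 and 3 are high in Pmch and Trh, and all 3 Dot1l(fl/+) pools are above the rest in Gm42418 and Lars2.

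The remaining genes of the lowest p-values among the lower ones were at different levels. Podxl2, a sialomucin-like membrane protein, was at 182, 189 and 173 CPM in the Dot1l(+/+) pools, at 201, 200.4 and 218 in the Dot1l(fl/+) pools and at 181, 175 and 177 in the Dot1l(fl/fl) pools (log2 difference -0.22, SE 0.0514, edgeR adjusted p-value 0.535). Myoc, the secreted protein myocilin, was at 26.1, 29.8 and 26.7 CPM in the Dot1l(+/+) pools, at 22.9, 41.1 and 33.0 in the Dot1l(fl/+) pools and at 20.4, 22.2 and 18.3 in the Dot1l(fl/fl) pools, below both other groups (log2 difference -0.67, SE 0.159, edgeR adjusted p-value 0.535). Its DESeq2 adjusted p-value was 0.0284 on 9 libraries and 0.0545 on 6. Rd3, which binds retinal guanylate cyclases, was at 0.705, 0.707 and 1.30 CPM in the Dot1l(fl/+) pools and 0.240, 0.356 and 0.182 in the Dot1l(fl/fl) pools, few counts in every library (log2 difference -1.73, SE 0.406, edgeR adjusted p-value 0.535).

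Glial and vascular cells showed small differences. Of 18 oligodendrocyte markers 15 were lower in Dot1l(fl/fl) (median -0.11), and 5 of the 10 myelin genes were lower with an unadjusted p-value under 0.05 (2.87% of all genes). Cnp, a phosphodiesterase of myelin, was at 517, 561 and 566 CPM in the Dot1l(fl/+) pools and 491, 467 and 485 in the Dot1l(fl/fl) pools, without overlap (log2 difference -0.19, SE 0.0572, edgeR adjusted p-value 0.641), and Mag, myelin-associated glycoprotein, was at 368, 363 and 408 and 341, 329.9 and 353 CPM (log2 difference -0.15, SE 0.0598, edgeR adjusted p-value 0.733). Pdgfra, a marker of oligodendrocyte precursors, was higher, at 69.5, 70.3 and 76.4 and 81.3, 76.2 and 78.1 CPM (log2 difference 0.12, SE 0.0533, edgeR adjusted p-value 0.745). Of the 18 markers, 1 was lower with an unadjusted p-value under 0.05 in the fit that left out Dot1l(fl/+) replicate 3, and 2 were in the fit that left out Dot1l(fl/fl) replicate 3, with medians of -0.068 and -0.067. The median was -0.15 in the female pools, with 15 of 18 markers lower, and -0.0053 in the male pools, 1 against 1, with 9 of 18 lower. The medians of 11 astrocyte markers (0.012) and 11 microglia markers (0.038) lay near 0, and none of either list had an unadjusted p-value under 0.05. Their signs depended on single pools: leaving out Dot1l(fl/+) replicate 1 gave -0.014 and -0.019, and leaving out Dot1l(fl/fl) replicate 2 gave -0.018 and -0.010. Without Dot1l(fl/+) replicate 3 the astrocyte median was -0.0031. Of 22 vascular and meningeal markers 17 were higher, among them all 6 mural and all 7 fibroblast markers (medians 0.19 and 0.17). The median of the 22 was 0.090, and leaving out Dot1l(fl/+) replicate 1, 2 or 3 gave 0.040, 0.16 or 0.047, while leaving out Dot1l(fl/fl) replicate 1 or 3 gave 0.17 or 0.051. Of the 22 only Col3a1, a fibrillar collagen, had an unadjusted p-value under 0.05 (3.6% of all genes were higher at that threshold), at 7.25, 9.08 and 6.72 CPM in the Dot1l(fl/+) pools and 8.88, 10.2 and 11.6 in the Dot1l(fl/fl) pools (edgeR adjusted p-value 0.726).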

How the data were processed

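RNA sequencing libraries of dissected midbrain were compared between Dot1l(fl/fl) and Dot1l(fl/+), 3 pools each, with 3 pools of Dot1l(+/+) in the same fit. The authors deposited raw counts per Ensembl gene, 1 file per library, made from directional libraries of total RNA; the submitters' processing notes name bcl2fastq 2.17, Trimmomatic 0.30, DESeq2 1.10.1 and GRCm38.p4, and the aligner, the counting tool and how ribosomal RNA was removed are not given in the sources used here. The deposited comparison tables hold the authors' DESeq2 results (means, log2 fold changes with errors, Wald scores and p-values) and were not used. Of 47729 identifiers, 47310 had a gene in GENCODE M21, and 0 lines named no gene.

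Genes were kept with filterByExpr (17671) and tested with edgeR 4.0.16 (R 4.3.3, limma 3.58.1), TMM normalization, the quasi-likelihood test with genotype as the only factor and Benjamini-Hochberg adjustment over all genes. CPM values use TMM-scaled library sizes (factors 0.988 to 1.01), and means over a list use log2 CPM with a prior count of 2. The common biological coefficient of variation was 8.81%. Within-sex values are differences of such log2 CPM. The alternatives were DESeq2 1.42.0 on 9 and on 6 libraries, edgeR on 6 libraries, DESeq2's size factors, TMM without rRNA-like and mitochondrial genes, no filter, a minimum of 10 counts in all libraries, a block for the replicate number, an offset from splines of length and GC content (4 degrees of freedom) with and without the block, and each library left out. A term for the sex of the pool and the female pools alone were added after the data were seen. The steps were tested on simulated data. Figures were drawn with matplotlib 3.10.9 (Python 3.11.15).

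The members and gene lists were chosen with earlier results of these data known. Named genes were Dot1l, the 10 protein-coding and 3 other genes per direction with the lowest p-values, up to 4 members of each list with the lowest p-values, 5 dopamine genes and the mitochondrial genome proteins; others were named after their values were seen, some named by the rule are only counted, and 1 is not reported here. The counting may not have used strand, so overlapping and antisense genes may share reads.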

Additional observations from a re-analysis of the deposited data

How the results depend on the processing

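The number of genes past an adjusted p-value of 0.05 was 0 in the fit reported, and it was 14 with DESeq2 on 9 libraries, 8 with DESeq2 on 6 libraries and 164 with no filter on low counts in edgeR. Leaving out 1 library gave 0 to 12 such genes: 2 without Dot1l(fl/+) replicate 1, 12 without replicate 2 (among them Pmch, Trh, Pde1a and Ptgds) and 4 without replicate 3 (among them Slc6a3, Slc18a2 and Lars2), but 0 without any Dot1l(fl/fl) or Dot1l(+/+) library. The count at an unadjusted p-value under 0.05 was 1145 in the fit reported, 653 with DESeq2 on 6 libraries, 1795 with no filter, and 876 to 1752 when 1 library was left out. At 0.01 it was 246 in the fit reported, 657 with no filter and 167 to 542 when 1 library was left out. The share of higher genes among those under 0.05 was 55.6% in the fit reported and 44.4% without Dot1l(fl/fl) replicate 2. With the sex of the pool as a term 0 genes passed and 1149 had an unadjusted p-value under 0.05; in the female pools alone these counts were 0 and 1108.

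The study describes its pools as made of litter-matched sets, but no label ties a replicate number to a litter. The correlation over genes of the deviations of same-numbered Dot1l(fl/+) and Dot1l(fl/fl) pools was 0.289, 0.143 and 0.080 for numbers 1, 2 and 3. Dot1l(fl/+) replicates 1 and 2 correlated best with the same number, but replicate 3 correlated better with Dot1l(fl/fl) replicate 2 (0.108). The sex read from expression also matched by number in every genotype. Without a label that ties numbers to litters, the numbers were not taken to pair the pools. With the replicate number as a block, 3 genes passed in edgeR (Clic6 and Pmch among them), and 4 with the block and the length and GC offset.

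The median log2 difference of the dopamine neuron genes was -0.25 to -0.14 when 1 library was left out, that of the nuclear respiratory chain genes -0.17 to -0.064 and that of the mitochondrial genome proteins 0.11 to 0.27, each without a change of sign. The Dot1l difference was -0.0059 to 0.23, negative without Dot1l(fl/+) replicate 2. Signs turned in few named genes. Xist was at -0.33 with the block, -0.34 with the block and the offset, -0.35 with the sex term and -0.45 to 0.71 when 1 library was left out, and mt-Nd6 was at -0.030 with the offset, with or without the block, and at -0.16 to 0.17 when 1 library was left out. The same ranges were -0.011 to 0.53 for Alas2, -0.27 to 0.018 for Ppp1r1b, -6.72 to 11.95 for Eif2s3y, -10.8 to 10.9 for Uty and -7.33 to 9.95 for Ddx3y. The cause of these moves was not tested. With 3 pools a group, differences of the size seen in the respiratory chain genes lie within the spread of single pools, and genes under 1 CPM rest on few counts.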

Other observations

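Several other neuron types and pathways were measured in the same pools. Of 16 markers of cortical and hippocampal neurons 10 were higher in the Dot1l(fl/fl) pools, with a median log2 difference of 0.035. Without Dot1l(fl/+) replicate 2 that median was 0.27, with 13 of 16 higher, and without Dot1l(fl/fl) replicates 1, 2 and 3 it was 0.021, 0.0078 and 0.097. In the female pools it was -0.010 and in the male pools 0.26. The factor Neurod6 was at 45.0, 63.5 and 46.4 CPM in the Dot1l(fl/+) pools and 78.4, 68.8 and 49.0 in the Dot1l(fl/fl) pools. Of 8 striatal markers 7 were lower (median -0.16), with medians of -0.25 in the female and -0.059 in the male pools. Gpr6, a receptor of striatal projection neurons, was at 1.21, 1.27 and 1.03 CPM in the Dot1l(fl/+) pools and 0.600, 0.830 and 0.364 in the Dot1l(fl/fl) pools, without overlap but with few counts. Of 10 GABA neuron markers 7 were higher (median 0.088, but 0.027 or 0.041 when Dot1l(fl/+) replicate 3 or Dot1l(fl/fl) replicate 2 was left out), with the transcriptional cofactor Zfpm2 at 33.1, 39.6 and 29.2 CPM with 1 floxed allele and 38.0, 41.5 and 38.5 with 2. Serotonin neuron markers varied by pool within both genotypes: Tph2, the enzyme that starts serotonin synthesis, was at 5.48, 8.16 and 1.11 CPM in the Dot1l(fl/+) pools and 3.68, 2.53 and 1.40 in the Dot1l(fl/fl) pools.

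Immediate early genes, which follow neuronal activity, were mixed, with 7 of 19 higher and a median of -0.20. That sign rested on single pools: the median was 0.098, with 13 of 19 higher, without Dot1l(fl/+) replicate 2, and it was -0.38 without replicate 3, -0.12 without replicate 1 and -0.074 without Dot1l(fl/fl) replicate 3. Nr4a3 was at 48.4, 61.2 and 40.9 CPM in the Dot1l(fl/+) pools and 66.1, 65.5 and 54.8 in the Dot1l(fl/fl) pools, and Jund at 70.7, 64.9 and 76.6 and 67.5, 60.7 and 45.7. In edgeR, 0 of 16 circadian clock genes had an unadjusted p-value under 0.05 (median 0.013), but leaving out Dot1l(fl/+) replicate 2 or 3 gave 0.045 or -0.019, and leaving out Dot1l(fl/fl) replicate 1 or 2 gave -0.0058 or -0.0031. Of 41 Wnt pathway genes 23 were lower (median -0.017, and -0.040 to -0.024 without single Dot1l(fl/+) or Dot1l(fl/fl) pools), and the secreted inhibitor Wif1, at 2.51, 2.33 and 2.33 CPM in the Dot1l(fl/+) pools and 0.960, 1.62 and 2.24 in the Dot1l(fl/fl) pools, was the only member with an unadjusted p-value under 0.05 (2.87% of all genes were lower at that threshold). Of 19 metallothionein, antioxidant and selenoprotein genes 13 were lower (median -0.064), and leaving out Dot1l(fl/+) replicate 1 or 2 gave -0.13 or -0.033, while leaving out Dot1l(fl/fl) replicate 2 or 3 gave -0.12 or -0.018. The sign differed by sex, at -0.14 with 15 of 19 lower in the female pools and 0.050 with 5 of 19 lower in the male pools, 1 against 1. In the same list, catalase, Cat, was higher, at 60.8, 50.4 and 64.3 and 65.8, 66.4 and 65.7 CPM. The hemoglobin gene Hba-a1, a red blood cell gene, was at 49.4, 34.2 and 32.2 CPM in the Dot1l(fl/+) pools and 66.7, 64.3 and 50.9 in the Dot1l(fl/fl) pools, without overlap between these groups and at 69.0, 55.5 and 36.2 in the Dot1l(+/+) pools.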
